A study of Mus musculus with 4 samples.

Results

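Oxidative phosphorylation was described here through 99 genes: 86 nuclear genes and 13 genes of the mitochondrial genome, out of 21993 genes in each expression file. The members were taken by symbol alone, as the Ndufa, Ndufb, Ndufc, Ndufs and Ndufv genes with a number, Cox4 to Cox8, Uqcr and Atp5 genes, Sdha to Sdhd, Cyc1, Cycs and the mt- genes of protein subunits, with tissue isoforms kept. The symbol rule uses no measured value, though it was chosen with earlier results of these data known. RNA sequencing libraries were made from cells labelled CD3-CD45+NK1.1+ NK cells, sorted by flow cytometry from the uterus of female mice at gd11.5 (day of gestation) after mating with B6 males. Mice of both genotypes were homozygous for the same floxed allele. The Ncr1Cre genotype (n = 2 libraries) also carried Cre recombinase driven by Ncr1, the gene of the NK-cell receptor NKp46, and the control genotype (n = 2 libraries) had no Cre. The comparison asks how the libraries with and without Cre differ. The labels do not tell whether the 2 libraries of a genotype came from different animals or from pools, so each p-value covers only library-to-library spread, which can be technical.

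Oxidative phosphorylation takes place in the inner mitochondrial membrane. Complex I (NADH dehydrogenase) and complex II (succinate dehydrogenase) pass electrons to ubiquinone, complex III (cytochrome bc1) passes them on to cytochrome c, and complex IV (cytochrome c oxidase) gives them to oxygen. Complexes I, III and IV pump protons, and complex V (ATP synthase) uses the gradient to make ATP. Complexes I, III, IV and V combine subunits encoded in the nucleus, which are imported, with subunits encoded in mitochondrial DNA, whereas complex II is nuclear throughout. The mitochondrial genes are transcribed as long precursors from both strands and cut into individual messages.

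Levels are in FPKM, fragments scaled to transcript length and to library size, so levels of different genes can be roughly compared. How reads in overlapping genes, or reads with several matches, were assigned is not given, so values of single genes can be off. Summed FPKM was 460108 and 468192 in Ncr1Cre and 384852 and 396770 in control. Low values came in steps that implied 20950000 to 38550000 fragments per library, which puts 1 fragment from a transcript of 1 kb at 0.0259 to 0.0477 FPKM. The label was checked against marker genes of NK cells. Ncr1 was listed at 0 and 0.152 FPKM in Ncr1Cre and at 0.136 and 0.359 in control, and Klrb1c, the gene of the sorted marker NK1.1, at 0.924 and 0.673 against 0.449 and 0.973. Ptprc, the gene of CD45, was listed at 4.39 and 5.16 against 2.89 and 2.57. The 12 NK markers summed to 38.1 to 39.4 FPKM in Ncr1Cre and 25.8 to 26.3 in control. The 12 epithelial markers summed to 48634 and 51587 FPKM in Ncr1Cre and 10116 and 10232 in control, and all 12 rose. The 12 stromal markers summed to 16134 and 16095 against 35082 and 35501, with 11 lower and 1 higher. In all 4 libraries the summed levels of epithelial and of stromal markers were thus far above that of NK markers. In such bulk libraries, fewer cells of a type and less RNA per cell cannot be told apart.

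The mitochondrially encoded subunits were higher in the Ncr1Cre libraries. Of the 13, 12 averaged 1 FPKM or more across all libraries and were tested with limma on log2(FPKM + 1), where 11 rose and 0 fell at an adjusted p under 0.05. Over all 11762 genes tested, 30.9% were called higher and 17.6% lower. Mitochondrial messages are cut from shared precursors, so the calls of these members are not independent of each other. The median log2 fold change (Ncr1Cre minus control) was 1.41 for the 12 tested members and 0.11 for all genes tested. The 11 members lay higher in both Ncr1Cre libraries than in either control library, which was so for 46.4% of all genes tested.

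**Figure D1:**
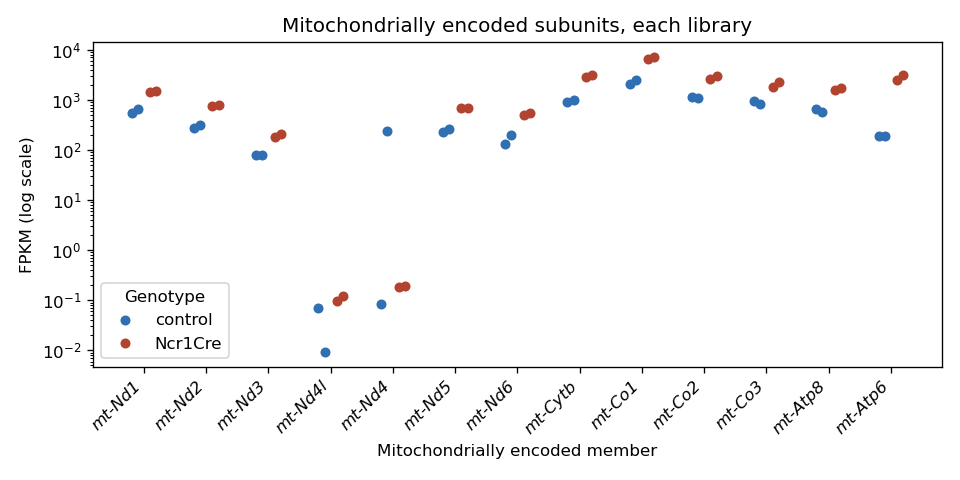
FPKM on a log scale of the 13 mitochondrially encoded members, with 1 point per library (blue, 2 control libraries; red, 2 Ncr1Cre libraries). For the 11 members above 1 FPKM in all libraries the red points lie above the blue points. mt-Nd4l is near 0 in all libraries, and mt-Nd4 is near 0 in 3 libraries and at 239 FPKM in control replicate 2.

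The 3 mitochondrially encoded subunits of complex IV were among the most abundant members. mt-Co1, the catalytic subunit, stood at 6585 and 7098 FPKM in Ncr1Cre and at 2108 and 2467 in control. Both Ncr1Cre libraries were above both control libraries (log2 fold change 1.58, SE 0.10, limma adjusted p = 0.000412). mt-Co2, which accepts electrons from cytochrome c, was listed at 2645 and 2989 FPKM against 1151 and 1092 (1.33, SE 0.08, adjusted p = 0.000416). mt-Co3, which flanks the catalytic core, was listed at 1797 and 2237 against 927 and 837 (1.19, SE 0.12, adjusted p = 0.00166). The groups did not overlap for any of these subunits. mt-Cytb, the cytochrome b of complex III, stood at 2864 and 3123 FPKM in Ncr1Cre and at 890 and 1008 in control, a log2 fold change of 1.66 (SE 0.09, adjusted p = 0.000296).

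Complex I has 7 mitochondrially encoded subunits, all in its membrane arm, and 5 of them rose. mt-Nd1 was listed at 1452 and 1532 FPKM in Ncr1Cre and at 539 and 655 in control (log2 fold change 1.33, SE 0.11). mt-Nd2 was listed at 754 and 801 against 270 and 320 (1.40, SE 0.10). mt-Nd5, the outermost proton-pumping subunit, was listed at 676 and 675 against 229 and 258 (1.47, SE 0.08, adjusted p = 0.000294). These 3 subunits differed by similar amounts, from 1.33 to 1.47. mt-Nd3 was the least abundant of the 5, at 177 and 210 FPKM against 79.5 and 79.7 (1.27, SE 0.10). mt-Nd6 is the only mitochondrially encoded member on the minus strand of the annotated mitochondrial genome. It was listed at 491 and 555 FPKM in Ncr1Cre and at 132 and 195 in control (1.70, SE 0.19, adjusted p = 0.00209). Its control libraries lay 0.55 apart on the log2(FPKM + 1) scale, the widest replicate gap among the 11 called members. mt-Nd6 overlaps mt-Nd5 on the opposite strand by 14 bases in the GENCODE M21 annotation, and the sources used here do not say whether strand was used in counting.

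The other 2 subunits of complex I, mt-Nd4 and mt-Nd4l, were not measured reliably. mt-Nd4 was listed at 0.185 and 0.193 FPKM in Ncr1Cre, at 0.0836 in control replicate 1 and at 239 in control replicate 2. The control libraries were 7.79 apart on the log2(FPKM + 1) scale, so mt-Nd4 was the only member unstable between replicates, taken as a gap of at least 1 in either genotype. Of all genes tested, 1.31% were unstable by that rule. Its log2 fold change of -3.76 (SE 2.46) did not pass the test (adjusted p = 0.26), and without control replicate 1 the lone control library turned it into a call of lower (-7.66, adjusted p = 0.00134). mt-Nd4l was listed at 0.0987 and 0.12 FPKM in Ncr1Cre and at 0.0698 and 0.00925 in control, below the filter. mt-Nd4l and mt-Nd4 lie next to each other on the plus strand, overlap by 7 bases in GENCODE M21 and are translated from a shared message. Their neighbours mt-Nd3 and mt-Nd5 were at 79.5 FPKM or more in all 4 libraries. Gapdh, a glycolytic gene of every cell, was also unstable and is named because of its values, at 2.25 and 13.3 FPKM in Ncr1Cre and at 4.49 and 0 in control. No fold is therefore read from mt-Nd4 or mt-Nd4l.

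The mitochondrially encoded subunits of complex V differed from each other. mt-Atp8, a small subunit of the membrane part of ATP synthase, was listed at 1558 and 1723 FPKM in Ncr1Cre and at 657 and 570 in control. Its log2 fold change of 1.42 (SE 0.10, adjusted p = 0.000507) lay within the range of the subunits of complexes I and IV. mt-Atp6, the proton-channel subunit, was listed at 2444 and 3064 FPKM against 190 and 186, a log2 fold change of 3.85 (SE 0.12, adjusted p = 0.000126) or 14.6-fold. Its control libraries lay 0.03 apart on the log2(FPKM + 1) scale and its Ncr1Cre libraries 0.33, the widest Ncr1Cre gap of the 13 members. The ratio of mt-Atp6 to mt-Atp8 was 1.57 and 1.78 in Ncr1Cre and 0.289 and 0.327 in control. These ratios did not overlap, with an exact two-sided permutation p of 0.333, the smallest that 2 libraries against 2 can give. In GENCODE M21 the genes overlap by 43 bases and share their strand, and they are translated from a shared message. How reads in the overlap, or reads that also match nuclear copies of mitochondrial DNA, were assigned is not given in the sources used here, so the separate values of mt-Atp8 and mt-Atp6 are uncertain.

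Summed over the 13 members, mitochondrially encoded FPKM was 21444 and 24008 in Ncr1Cre and 7173 and 7908 in control, 4.66% and 5.13% of a library's FPKM against 1.86% and 1.99%. The 86 nuclear members summed to 6430 and 6584 FPKM against 4637 and 4563. That was 1.40% and 1.41% of a library's FPKM against 1.20% and 1.15%, a 1.19-fold difference in the mean share. The ratio of mitochondrially encoded to nuclear FPKM, which does not depend on how a library was scaled as a whole, was 3.33 and 3.65 in Ncr1Cre and 1.55 and 1.73 in control. The mean ratio was 2.13-fold higher in Ncr1Cre, and the genotypes did not overlap (exact two-sided permutation p = 0.333, again the smallest possible). Without mt-Atp6, mt-Nd4 and mt-Nd4l, a set chosen after seeing the data, the ratio was 2.95 and 3.18 against 1.51 and 1.64.

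The ratio was computed within each complex that holds both kinds of subunit. In complex I it was 1.89 and 1.96 in Ncr1Cre and 0.949 and 1.38 in control, where the higher control value is the library with mt-Nd4 at 239 FPKM. In complex III it was 4.10 and 4.24 against 1.81 and 2.15. Both complexes thus had a higher ratio in each Ncr1Cre library. In complex IV the ratio was 6.31 and 7.08 against 3.50 and 3.88. In complex V it was 2.20 and 2.57 against 0.612 and 0.532, with mt-Atp6 as the main difference. The genotypes did not overlap in any of the 4 complexes, and each exact p was 0.333. Epithelial, erythroid, macrophage and trophoblast markers were higher in the same libraries and stromal and smooth-muscle markers lower, and the part of cell composition in the ratio was not tested.

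**Figure D2:**
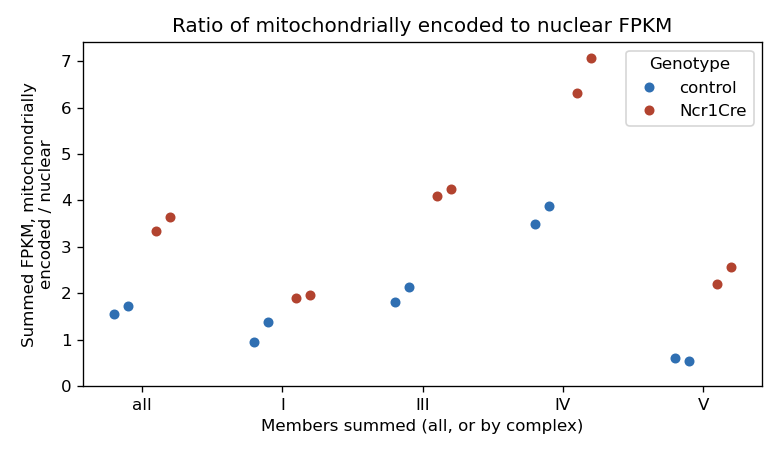
Summed FPKM of mitochondrially encoded members divided by that of nuclear members (y axis, no unit), for all members and for complexes I, III, IV and V, with 1 point per library (blue, control; red, Ncr1Cre). Over all members the control libraries are at 1.55 and 1.73 and the Ncr1Cre libraries at 3.33 and 3.65.

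The nuclear members were higher by smaller amounts. Of the 86, 80 reached the filter and were tested, and 62 rose and 0 fell (77.5% higher, against 30.9% of all genes tested). The median log2 fold change of the 80 was 0.54, against 0.11 for all genes tested, and the values ran from -0.04 to 1.29. The count depended on scaling: 52 were higher after median rescaling, 47 after quantile normalization, where 1 was lower, and 41 when each library was rescaled to the same sum without mitochondrially encoded genes. The median over all genes tested moved to 0.00, -0.05 and -0.07 under these settings, and that of the nuclear members to 0.41, 0.37 and 0.34. Of all calls, 63.7% were higher as deposited, against 51.8%, 46.3% and 45.2%. The members that were higher under these 3 scalings were among the 62 in each case.

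**Figure D3:**
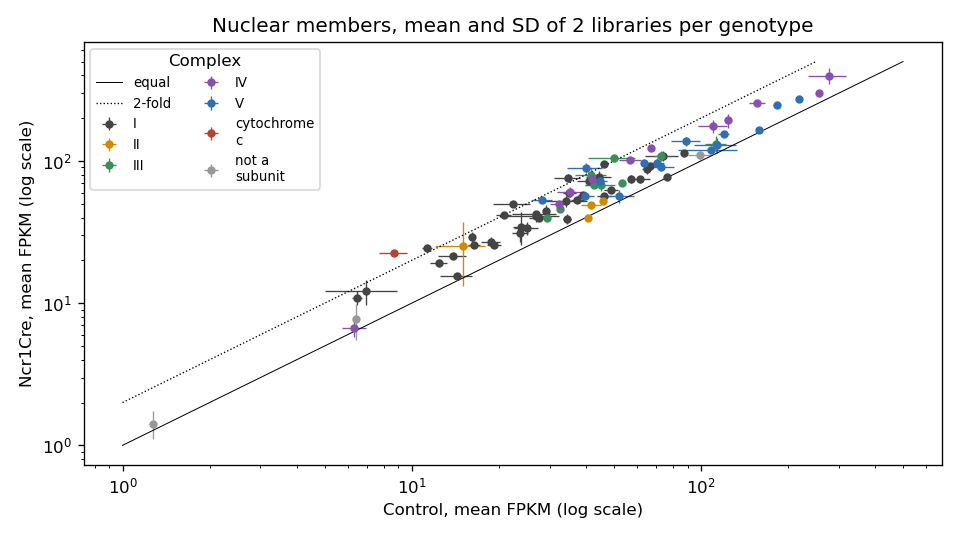
Mean FPKM in Ncr1Cre (y axis) against control (x axis), both on log scales, for the 80 nuclear members tested, coloured by complex; bars are the SD of 2 libraries, the solid line marks equal values and the dotted line a doubling. Nearly all points lie above the solid line, with Cycs farthest above it at 22.7 against 8.70 FPKM and Sdha just under it.

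Cycs, which encodes cytochrome c, the soluble electron carrier between complexes III and IV, had the largest nuclear difference. It was listed at 22.7 FPKM in both Ncr1Cre libraries and at 8.01 and 9.39 in control (log2 fold change 1.29, SE 0.10, adjusted p = 0.000676). The gap between the genotypes was several times that between the control libraries, which can follow from singling out the largest difference. Processed copies of Cycs and of several other short respiratory genes exist in the mouse genome, so values of such genes can hold reads of copies.

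Promoters of respiratory genes are known for binding sites of NRF1, of ETS factors such as GABP, of YY1 and of oestrogen-related receptors. The letters GCGCATGCG (NRF1), CCGGAAG (ETS), AAGATGG (YY1) and CAAGGTCA (oestrogen-related receptor) were searched on both strands in RefSeq windows of build GRCm38.p6, from 250 bases before to 50 after a start. A window was found for 70 of the 86 nuclear members, and the 16 others, such as Cox4i1, Cyc1, Sdhc and Ndufs1, were left out. None of the 4 motifs contains another. At least 1 of the motifs was present for 34 of the 70 (48.6%), against 30.1% of 9299 genes tested that had a window and 19.2% of all 27025 genes of the table. The NRF1 letters occurred for 12.9% of members against 4.03% of genes tested, those of YY1 for 17.1% against 8.53%, those of ETS for 22.9% against 19.9%, and those of the oestrogen-related receptor for 5.71% against 1.31%. Among members with a window, 29 of 53 that rose and 5 of 14 that were tested and not called held a motif, small groups whose difference was not tested. A match describes letters and is not shown to be a bound site.

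Upstream stretches of 5 members that rose are given because they hold these motifs, in capitals. The one from Cycs holds the NRF1 letters on the other strand, those from Ndufa11, Atp5k and Cox6a1 hold them on both strands with overlap, and that from Atp5j holds the YY1 and ETS letters. They lie at chr6:50566571-50566670 (minus strand, Cycs), chr17:56717662-56717761 (plus strand, Ndufa11), chr5:108434400-108434499 (minus strand, Atp5k), chr5:115349061-115349160 (minus strand, Cox6a1) and chr16:84834978-84835077 (minus strand, Atp5j) of GRCm38.p6, 5′ to 3′ on the gene's strand.
Cycs: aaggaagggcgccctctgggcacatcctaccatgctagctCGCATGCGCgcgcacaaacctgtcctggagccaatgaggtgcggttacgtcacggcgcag
Ndufa11: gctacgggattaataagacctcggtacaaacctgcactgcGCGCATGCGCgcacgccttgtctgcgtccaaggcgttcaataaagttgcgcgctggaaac
Atp5k: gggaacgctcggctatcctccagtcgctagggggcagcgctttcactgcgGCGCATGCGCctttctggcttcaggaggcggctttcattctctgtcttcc
Cox6a1: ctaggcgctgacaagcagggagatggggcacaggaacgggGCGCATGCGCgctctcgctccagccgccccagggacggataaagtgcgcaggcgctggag
Atp5j: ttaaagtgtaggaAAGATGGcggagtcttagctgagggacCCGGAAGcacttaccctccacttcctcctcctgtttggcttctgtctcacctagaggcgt

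Complex I had 37 nuclear members by name, all tested, of which 32 rose. Counts in this and the following groups of nuclear members are read against the 30.9% called higher and 17.6% lower among all genes tested. The 3 with the smallest p were Ndufa6, Ndufb2 and Ndufa11, all accessory subunits. Ndufa6 was listed at 91.9 and 98.5 FPKM in Ncr1Cre and at 47.3 and 45.2 in control (log2 fold change 1.03, SE 0.07, adjusted p = 0.000543). Ndufb2 was listed at 25.1 and 23.8 against 11 and 11.6 (1.05, SE 0.08, adjusted p = 0.000677). Ndufa11, whose promoter is shown above, was listed at 41.7 and 41.3 against 21.7 and 20 (0.96, SE 0.08, adjusted p = 0.000746). These 3 were picked for a small p, so close replicates and distant genotypes follow from the choice.

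The catalytic core of complex I, which holds the flavin and the iron-sulphur clusters, has 7 nuclear subunits. Of these, 4 rose, with a median log2 fold change of 0.42, and of the 30 other nuclear members 28 rose, with a median of 0.60. Ndufs1, the largest of them, was listed at 15.4 and 15.8 FPKM in Ncr1Cre and at 13.0 and 15.6 in control and did not pass (0.12, SE 0.11, adjusted p = 0.395). Ndufv1, which binds NADH and the flavin, did not pass either (0.18, SE 0.08, adjusted p = 0.139). Ndufs7, which carries the last iron-sulphur cluster, rose from 47.5 and 41.4 to 83 and 70.7 FPKM (0.78, SE 0.11, adjusted p = 0.00471). Among the accessory members, Ndufb11 (adjusted p = 0.0553) and Ndufb5 (adjusted p = 0.0777) missed the threshold. For both, the Ncr1Cre libraries lay above the control libraries, which was so for 46.4% of all genes tested.

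In complex II, limma called 0 of 4 subunits in either direction, and 1, Sdhb, had an unadjusted p under 0.05. With only 4 subunits, that count cannot be told apart from the share of all genes. Sdha, the flavoprotein that oxidises succinate, was listed at 40.7 and 38.3 FPKM in Ncr1Cre and at 41.2 and 40.3 in control (log2 fold change -0.04, SE 0.07, adjusted p = 0.635). It was called lower under quantile normalization alone (-0.22, adjusted p = 0.0457). Sdhb, the iron-sulphur subunit, was listed at 52.2 and 52.7 against 46 and 46.1 (0.19, SE 0.06, adjusted p = 0.0637). The genotypes did not overlap for Sdhb, though the difference was small and turned to -0.01 when libraries were rescaled without mitochondrially encoded genes. Sdhd, a membrane anchor, was listed at 46.6 and 50.6 against 39.5 and 44.1 (0.21, SE 0.09, adjusted p = 0.102). Sdhc, the other anchor, was listed at 16.8 and 33.9 FPKM in Ncr1Cre and at 12.9 and 17.1 in control. Its Ncr1Cre libraries were nearly far enough apart to count as unstable, and it was called higher without the lower of them, replicate 1 (1.14, adjusted p = 0.00453). A p above the threshold does not show that complex II was equal in the genotypes.

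In complex III, 8 of 9 nuclear members rose. Uqcrq, a small subunit that binds cytochrome b, was listed at 69.4 and 66.2 FPKM in Ncr1Cre and at 45 and 40.5 in control (log2 fold change 0.65, SE 0.08, adjusted p = 0.0028). Uqcr11 was listed at 109 and 100.1 against 56.6 and 43.4 (1.06, SE 0.14, adjusted p = 0.00336). Uqcrb was listed at 72.4 and 86.1 against 45.4 and 38.1 (0.91, SE 0.13, adjusted p = 0.00408). These small subunits, picked for a small p, had larger differences than the core proteins Uqcrc1 (0.39), Uqcrc2 (0.41) and Uqcrfs1 (0.49). The core proteins rose as well, and Uqcrfs1 is the Rieske iron-sulphur protein. Uqcr10, another small subunit, rose by 0.57. Cyc1, the cytochrome c1 that donates to cytochrome c, rose by 0.58 (adjusted p = 0.0114). Uqcrh, the hinge subunit, had the smallest difference of the 9 and did not pass (0.23, adjusted p = 0.17).

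In complex IV, 11 of 17 nuclear members were tested and 10 rose. Cox7c had the smallest p, at 122 and 124 FPKM in Ncr1Cre and 66.3 and 68.5 in control (log2 fold change 0.86, SE 0.06, adjusted p = 0.000586). Cox5a, a matrix-side subunit, was listed at 71.1 and 78.7 against 42.3 and 42 (0.81, SE 0.08, adjusted p = 0.00126). Cox8a, a small membrane subunit, was listed at 257 and 258 against 164 and 150.1 (0.71, SE 0.07, adjusted p = 0.00138). These 3 were picked for a small p, so replicates close to each other relative to the difference follow from the choice. Cox6a1, whose promoter is shown above, had the highest mean of the nuclear members, at 434 and 363 FPKM against 306 and 247, though Cox4i1 was above it in control replicate 2. Its log2 fold change of 0.53 (SE 0.14, adjusted p = 0.029) was not called after any of the 3 rescalings (adjusted p from 0.058 to 0.152) or with no filter on low values (0.0554), nor without Ncr1Cre replicate 1 (0.0704) or control replicate 2 (0.097). Cox4i1, a larger subunit that regulates the enzyme, was listed at 299 and 304 against 257 and 255 and rose by 0.24 (adjusted p = 0.0235). It was not called after any rescaling, where its lowest value was -0.01 with quantile normalization, nor without any 1 of the 4 libraries (adjusted p from 0.0815 to 0.112).

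Of the tissue isoforms of complex IV, 6 stayed below the filter. Cox7b2 and Cox8c, isoforms known from testis, were listed at 0 in all 4 libraries, while their widely expressed counterparts Cox7b (64 and 57.4 against 37.8 and 32.8 FPKM) and Cox8a rose. Cox6a2 and Cox8b, of heart and skeletal muscle, did not exceed 0.116 FPKM. Cox7a1, of muscle, reached at most 0.868 FPKM, while Cox7a2 was listed at 48.7 and 50.7 against 33.9 and 30.7 and rose. Cox4i2, known from lung and contractile cells, was listed at 0.0788 and 0.533 FPKM in Ncr1Cre and at 0.389 and 0.698 in control, and the genotypes overlapped. Smooth-muscle markers summed to 84.6 and 78.6 FPKM in Ncr1Cre against 362 and 359 in control. Cox6b2, a testis isoform, was the exception above the filter, at 6.07 and 7.28 against 5.90 and 6.75 FPKM. It did not pass the test (0.07, adjusted p = 0.689), while Cox6b1 rose (0.67, adjusted p = 0.00746). Ndufa4, now assigned to complex IV but counted above under complex I by its name, rose from 88.2 and 86.3 to 109 and 117 FPKM, and its relative Ndufa4l2, known as a hypoxia-induced gene, from 6.30 and 6.65 to 10 and 11.7 (0.66, adjusted p = 0.00652).

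In complex V, 11 of 15 nuclear subunits rose. Atp5k, a membrane subunit near the dimer interface, was listed at 51.7 and 55 FPKM in Ncr1Cre and at 26.7 and 30 in control (log2 fold change 0.89, SE 0.09, adjusted p = 0.00138). Atp5g1, Atp5g2 and Atp5g3 encode the same mature subunit c, which forms the rotating ring, with different import sequences. Atp5g1 was listed at 84 and 94.5 against 36.1 and 43.9 (1.14, SE 0.12, adjusted p = 0.00166), the second largest nuclear difference. Atp5g3 rose less (0.38, SE 0.07, adjusted p = 0.00877), and Atp5g2 was listed at 141 and 119 against 127 and 100.2 and did not pass (0.20, adjusted p = 0.297). Atp5g1 thus made up 22.2% and 25.4% of the summed FPKM of the 3 genes in Ncr1Cre and 12.6% and 16.9% in control (exact two-sided permutation p = 0.333). Of the catalytic head, Atp5b, the beta subunit, rose by 0.31 (adjusted p = 0.00983), while Atp5a1, the alpha subunit, was listed at 164 and 165 against 156 and 161 (0.05, adjusted p = 0.504). Of the central stalk, Atp5c1 and Atp5d did not pass either, while Atp5e rose (0.43, adjusted p = 0.00514). Atp5j2, of the membrane part, was listed at 70.5 and 72.9 against 43.2 and 46.6 (0.66, SE 0.07, adjusted p = 0.00191).

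The rule also took 3 genes whose products are not fixed subunits, and limma called 0 of them, with none at an unadjusted p under 0.05. Atp5s (0.08, adjusted p = 0.645), Atp5sl, a relative linked to complex I assembly (0.21, adjusted p = 0.393), and Cox7a2l, which joins complexes III and IV into supercomplexes (0.14, adjusted p = 0.28), overlapped between the genotypes. Atp5sl was called higher without Ncr1Cre replicate 1 (0.46, adjusted p = 0.0331) and stood at -0.05 without replicate 2.

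**Figure D4:**
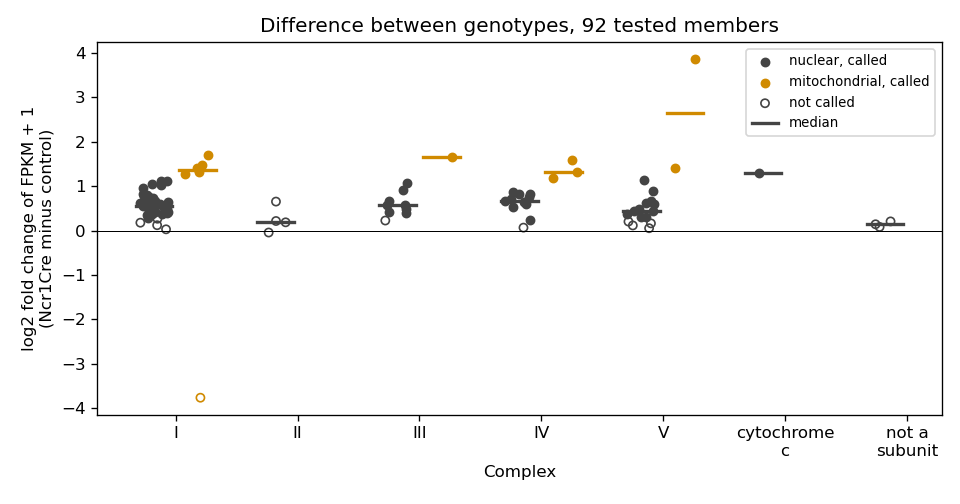
Log2 fold change of FPKM + 1, Ncr1Cre minus control, for the 92 members tested, by complex; grey points are nuclear and orange points mitochondrially encoded, filled where called at an adjusted p under 0.05, and bars are medians. Called orange points lie between 1.19 and 1.70 apart from mt-Atp6 at 3.85, most grey points between 0 and 1.14, with Cycs at 1.29 above and Sdha at -0.04 below, and the 4 points of complex II are open, as is mt-Nd4 at -3.76.

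Nuclear subunit genes have short transcripts, and short genes in general were higher in the Ncr1Cre libraries. Of the nuclear members whose longest transcript in GENCODE M21 has 500 to 1000 bases, 31 of 35 rose (median log2 fold change 0.61), and of all 530 tested genes of that length 338 rose (63.8%, median 0.51). With 1000 to 2000 bases, 18 of 26 nuclear members rose (69.2%, median 0.43), against 826 of 1981 genes (41.7%, median 0.26). With 2000 bases or more, 12 of 18 members rose (66.7%, median 0.52), against 2439 of 9169 genes (26.6%, median 0.05). The longest annotated transcript, such as 6310 bases for Atp5l and 4715 for Atp5g1, need not be the one expressed. Members can therefore stand in a bin longer than their message, and the correlation below shares this limit. Only 1 member was shorter than 500 bases. The rank correlation of log2 fold change with that length was -0.11 across the 80 members and -0.24 across 11738 genes tested, where genes share libraries and are not replicates. RNA quality was not measured here, and the part of transcript length in the members' differences was not tested.

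Other mitochondrial genes, in lists made from general knowledge, were counted in the same way and are read against the 30.9% called higher and 17.6% called lower among all genes tested. Of 76 genes of the mitochondrial ribosome, which translates the mt- messages, 42 rose and 0 fell (55.3% higher, median log2 fold change 0.45). Mrps6 was listed at 162 and 170.1 FPKM in Ncr1Cre and at 45.3 and 46.2 in control (1.84, SE 0.06, adjusted p = 0.000149), Mrps21 rose by 0.99 and Mrpl14 by 0.82. Of 42 tested assembly factors, which build the complexes, 15 rose and 1 fell (median 0.27), a share of 35.7% higher that is near that of all genes. Pet100, a factor of complex IV, was listed at 9.60 and 8.28 against 2.58 and 2.70 FPKM (1.45, SE 0.11, adjusted p = 0.000648), Coa3 rose by 0.59 and Acad9, of complex I assembly, by 0.69. The factor that fell was Tmem126b, also of complex I assembly (-0.60, adjusted p = 0.0109).

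Of 28 tested genes that copy and express mitochondrial DNA, 6 rose and 0 fell (median 0.23), and their share of 21.4% higher was below that of all genes. Peo1, which encodes the replicative helicase Twinkle, was listed at 10.1 and 9.84 FPKM in Ncr1Cre and at 3.58 and 4.26 in control (1.16, SE 0.11, adjusted p = 0.00114). Polg2, the accessory subunit of the mitochondrial DNA polymerase, rose by 0.58 and Ssbp1, the single-strand binding protein, by 0.39. Tfam, which packages mitochondrial DNA, stood at 3.62 and 4.36 against 3.21 and 3.31 FPKM (0.23, adjusted p = 0.168), and Polrmt, the mitochondrial RNA polymerase, at 6.44 and 5.36 against 4.86 and 4.61 (0.26, adjusted p = 0.119). Tfam, Polrmt and Nrf1 are given outside the rule for naming genes. Of 12 tested regulators of mitochondrial biogenesis, limma called 0, and 1, Gabpb1, had an unadjusted p under 0.05. Those with the smallest p were Gabpb1 (0.32, adjusted p = 0.0571), Esrra (0.62, adjusted p = 0.0911) and Gabpa (-0.24, adjusted p = 0.0957), and Nrf1 stood at 5.78 and 5.61 against 6.90 and 5.49 FPKM.

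The tricarboxylic acid cycle, which feeds electrons to complexes I and II, had 8 of 19 genes higher and 1 lower (42.1% higher, median 0.22). Suclg2 rose by 0.72 and Pdhb, of pyruvate dehydrogenase, by 0.58, while Idh2, which makes NADPH, fell by 0.45 on the log2 scale (adjusted p = 0.00542), from 39.6 and 41.2 to 29.5 and 29.1 FPKM. Cs, citrate synthase, also outside that rule, was listed at 38.5 and 39.9 against 40.9 and 40.4 FPKM and did not pass (-0.05, adjusted p = 0.557).

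**Figure D5:**
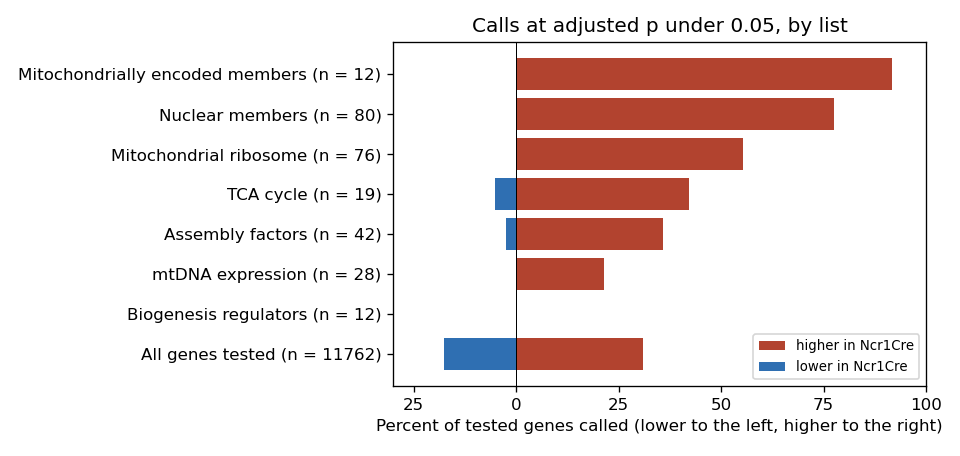
Percent of tested genes called higher (red, to the right) or lower (blue, to the left) in Ncr1Cre at an adjusted p under 0.05, for the members and for other mitochondrial lists, with the number of genes tested in brackets. The mitochondrially encoded members (91.7%) and nuclear members (77.5%) have larger shares of higher calls than all genes tested (30.9%), and biogenesis regulators have none of either kind.

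Markers of other cells differed between the same libraries. Calls of markers, here and above, are read against the 30.9% called higher and 17.6% lower among all genes tested. Of 4 tested erythroid markers 4 rose, and the list summed to 666 and 785 FPKM in Ncr1Cre and 69.2 and 77.3 in control. Of 7 macrophage markers 7 rose (98.2 and 96.6 against 28.4 and 30.4), and Cd163 was listed at 0 in 3 libraries. Of 8 trophoblast markers 7 rose (1332 and 1519 against 518 and 571), and Gcm1 was listed at 0 in all 4. Of 6 endothelial markers 3 rose and 1 fell (32.1 and 31.7 against 18.3 and 17.6), of 8 smooth-muscle markers 8 fell, and of 6 NK markers 4 rose. The part of each of these cell types in the differences of the members was not tested.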

How the data were processed

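Each of the 4 files gives 1 FPKM value per gene, which the authors made with Cufflinks. Its version is not stated, and mm9 is the genome build, both per the submitters' processing notes. Not given in the sources used here are the aligner, the gene annotation and what was done with reads that map to several places. All 21993 genes were joined by identifier. The gene of the floxed allele, a few other genes and the results that need them are not reported here.

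The test was limma 3.58.1 (R 4.3.3) with an intensity trend on log2(FPKM + 1), for the 11762 genes averaging 1 FPKM or more, with two-sided p-values adjusted by Benjamini-Hochberg over all of them. Log2 fold changes on this scale understate the change of low genes. FPKM are not counts, so no count test was run. Implied fragment totals came from genes with 1 transcript: 36.6% to 39.7% of low values were whole within 0.02 fragments at those totals. The fit was tested on simulated data. Sums and ratios per library were compared with exact permutation tests.

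Named genes were all mitochondrially encoded members, per complex the 3 nuclear members with the smallest p, the 2 largest and 2 smallest differences, tissue isoforms, unstable members, 3 per other list, and members that are no subunits. Further members named in complexes I, III and V were chosen after their values were seen. Members, lists and rules were chosen with earlier results of these data known. The reference annotation (GENCODE M21, RefSeq GRCm38.p6) is of another build than mm9, so it was used for names, lengths, overlaps and promoter sequence only.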

Additional observations from a re-analysis of the deposited data

How the results depend on the processing

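Alternatives were a pseudocount of 0.1, no filter or a filter at 5 FPKM, 3 rescalings, the replicate number as a block, and leaving out each library. Over all genes the number of calls was 5709, against 5565 to 6004 under the rescalings and the block, 4037 with the filter at 5 FPKM, and 4154 to 4942 without 1 library, where a lone library is assumed to vary like the other genotype. Nuclear members higher numbered 41 after rescaling without mitochondrially encoded genes, against 62, and 53 to 60 without 1 library, and 1 nuclear member, Sdha, was lower after quantile normalization. Mitochondrially encoded members higher numbered 11 under all alternatives run, and those lower 0 to 1 without 1 library, the 1 being mt-Nd4 without control replicate 1.

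The nuclear sum was 1.41-fold higher as deposited, 1.29-fold after median rescaling, 1.27-fold after quantile normalization and 1.23-fold after rescaling without mitochondrially encoded genes. The mitochondrially encoded sum was 3.01-fold higher, and 2.76-fold, 2.61-fold and 2.62-fold in the same order. Without mt-Atp6, mt-Nd4 and mt-Nd4l, chosen after seeing the data, it was 2.76-fold, and the ratio of both sums was 1.95-fold, against 2.13-fold. These shifts follow from the scaling used and the members left out. Summed FPKM without mitochondrially encoded genes was 1.15-fold higher in Ncr1Cre, a factor that rescaling without those genes divides out. Why the library totals differed was not tested.

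Single members were followed under each alternative for only a part of the members. Signs that turned among them belonged to members that were not called, apart from Cox4i1. Median rescaling gave -0.046 for Cox6b2. Quantile normalization gave -0.010 for Cox4i1, -0.10 for Cox6b2 and -0.12 for Atp5s. Rescaling without mitochondrially encoded genes gave -0.015 for Sdhb, -0.12 for Cox6b2, -0.00022 for Atp5g2, -0.050 for Atp5s and -0.061 for Cox7a2l. Of the members followed, Ndufa4 (limma adjusted p = 0.111), Atp5g3 (0.114), Cox4i1 (0.705) and Cox6a1 (0.131) were then no longer called. Over all nuclear members, 41 were higher under this rescaling, against 62 as deposited. Without 1 library, Cox6b2 ran from -0.049 to 0.18, Atp5s from -0.050 to 0.21 and Atp5sl from -0.049 to 0.46.

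The genotypes share only replicate numbers, and the correlation of the replicate differences was 0.16. With the replicate number as a block, 6004 genes were called, 66 nuclear members were higher, 60 of them among the 62, and Sdhb (adjusted p = 0.0438), Sdhc (0.0383), Sdhd (0.0335) and Atp5g2 (0.0325) were called higher. With 2 libraries a genotype, no exact test on sums or ratios can pass a threshold of 0.05.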

Other observations

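The symbol rule does not take every gene of these complexes. The 3 genes given here were chosen after their values were seen, so they do not stand for the rest. Usmg5, a small subunit of ATP synthase, was listed at 122 and 107 FPKM in Ncr1Cre and at 68.3 and 69 in control (log2 fold change 0.73, limma adjusted p = 0.00247). Ndufab1, the acyl carrier protein of complex I, was listed at 15.2 and 12.7 against 7.77 and 8.91 (adjusted p = 0.00899). Atpif1, the inhibitor of ATP hydrolysis by ATP synthase, was listed at 131 and 130 against 71.2 and 30.3 (1.47, adjusted p = 0.0291), with control libraries more than 1 apart on the log2 scale.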
